A study of Homo sapiens with 4 samples.

Results

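Genes for protein folding, quality control and export in the endoplasmic reticulum (ER) were followed in glioblastoma cells that had invaded brain tissue. The set holds 40 genes, chosen by symbol in the 4 raw count tables, out of 29387 genes listed for every library. All 40 were found once, and all 40 passed the filter on low counts, among 14231 genes tested. They comprise 11 chaperones and co-chaperones, 4 disulfide isomerases, 8 genes of ER-associated degradation, 5 of translocation into the ER, 7 stress sensors and transcription factors, and 5 of export and retrieval.

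The cells were U87MG, an established human glioblastoma line, with no genetic change or drug named in the labels. Parental cells were placed for 1 week on organotypic brain slices, which are living brain sections kept in culture, in a medium for neural stem cells that held FGF and EGF. The invasive groups are the cells recovered as invasive (titled brain invasive clone 1 and clone 2), and the controls are the poorly invasive cells from such cultures (control 1 and control 2). Both kinds were expanded for 3 to 5 days before polyadenylated RNA was sequenced. The labels list a growth medium with 10% FBS. The design text calls the invasive populations independently derived and sets each control beside the invasive population of its number, so control 1 with invasive 1 is pair 1 and control 2 with invasive 2 is pair 2. Each population is 1 library, and the labels do not say whether a titled clone grew from a single cell. The p-values therefore set the difference against its spread between 2 pairs, with the variance of each gene drawn toward that of all genes. The residual degrees of freedom were 1 and the prior ones had a median of 5.453, so for a typical gene the shared part weighed more.

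Library totals ran from 13829871 to 17817756 counts. Of the glioma line markers listed, VIM and CD44 had at least 113467 and 24032 counts in every library, while GFAP had 2 to 4, S100B 0 to 3 and SOX2 0 or 1. AQP4, MOG, CLDN5 and P2RY12, picked from lists of markers for astrocytes, oligodendrocytes, endothelium with pericytes and microglia with leukocytes, had 0 counts in each library. Some other genes of these lists had more, with 6123 to 8427 counts for CLU, 1229 to 1906 for CNP, 1074 to 2787 for CSPG4 and 140 to 379 for CSF1R. Of the neuron markers, SNAP25 had 364 to 622 counts and STMN2 0 or 1. The 0 counts therefore do not show that these cell types were absent. Whether the reads of the other markers came from U87MG or from slice cells was not tested. The labels do not name the species of the slices, and these counts say nothing of slice cells whose reads do not map to the human genome. In bulk RNA, a smaller share of cells with a transcript and less of it per cell cannot be told apart.

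Proteins bound for the cell surface or the matrix enter the ER through the SEC61 channel and are folded there by chaperones and by enzymes that form disulfide bonds. Those that fail to fold are moved back to the cytosol and degraded. The membrane sensors IRE1 (ERN1), PERK (EIF2AK3) and ATF6 respond to unfolded protein by raising chaperone and degradation genes, in part through the transcription factor XBP1. Folded cargo leaves in vesicles with a COPII coat, and KDEL receptors return escaped chaperones from the Golgi. Collagen is a demanding cargo of this route, and the ER-anchored factors CREB3L1 and CREB3L2 are known for their part in collagen-secreting cells of bone and cartilage.

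The abundant chaperones HSPA5, HSP90B1, CALR and CANX differed little between invasive and control populations, with fitted log2 fold changes from −0.16 to 0.15, whereas the highest values belonged to genes of lower level. These were the retrieval receptor KDELR3 (fitted log2 fold change 0.92 ± 0.31, SE), the degradation scaffold HERPUD1 (0.80 ± 0.26), the co-chaperone DNAJB9 (0.77 ± 0.21), the transcription factor CREB3L1 (0.70 ± 0.12) and the coat subunit SEC23A (0.58 ± 0.10). The lowest was ATF6 (−0.20 ± 0.09). No member passed the threshold: 0 of 40 were called higher, where 0.239% of all genes tested were, and 0 of 40 were called lower, against 0.0351% (quasi-likelihood test in edgeR blocked on the pair, adjusted p under 0.05 by Benjamini-Hochberg over all genes). At an unadjusted p under 0.05, 10 members were higher, beside 9.82% of all genes, and 0 were lower, beside 8.41%. DESeq2 with the same block called 2 of 40 higher, CREB3L1 and SEC23A, against 1.15% of the genes it tested, and 0 lower, against 0.236%.

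The median fitted log2 fold change of the members was 0.15, beside 0.0054 over all genes tested. Within pairs, 26 members were higher in both, where 33.4% of all genes were, and 6 lower in both, where 31.9% were. The pairs differed in direction for the other 8, beside 34.7% of all genes. These counts go by sign alone, with no limit on size. HSPA5 thus counts as higher in both with 0.0044 in pair 1, and EDEM1 as lower in both with −0.0002 in pair 2. Both invasive libraries lay above both controls for 17 members, beside 23.7% of all genes, and below both for 2, DNAJB11 and ATF6, beside 19.7%. By role the medians were 0.095 for chaperones, 0.028 for disulfide isomerases, 0.18 for degradation, 0.10 for translocation, 0.26 for sensors and factors and 0.36 for export and retrieval. These medians rest on 4 to 11 genes each and their differences were not tested.

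**Figure D1:**
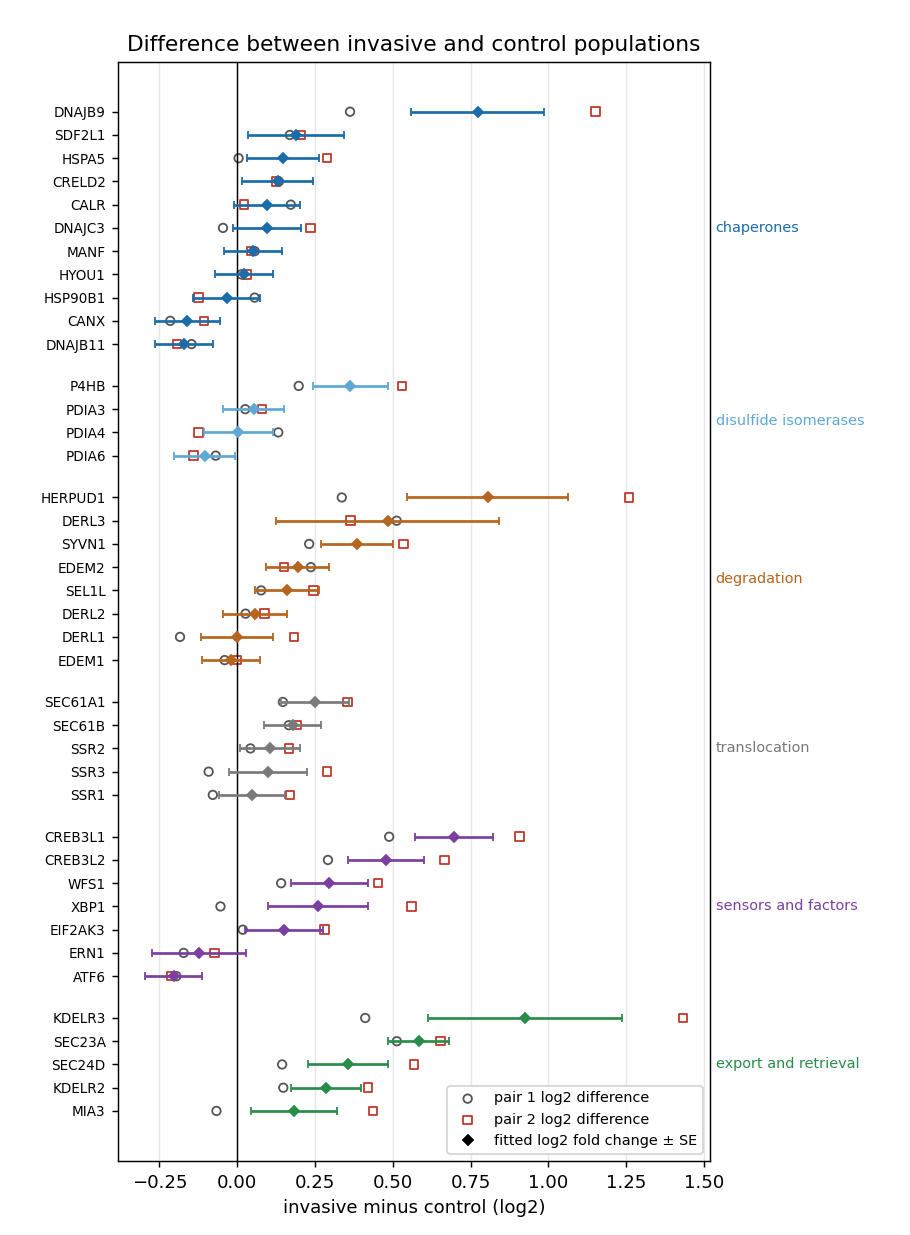
Fitted log2 fold change (filled diamonds, with SE bars) and the log2 difference of pair 1 (circles) and pair 2 (squares) for all 40 members, grouped by role, on a log2 axis. KDELR3, HERPUD1 and DNAJB9 have the rightmost diamonds and the widest gaps between the pairs, while the chaperones other than DNAJB9 lie between −0.17 and 0.19.

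Promoters of the members were examined first, for known ER stress elements in DNA. The choice by name took chaperone and degradation genes, which the stress sensors are known to raise. It therefore favours such elements, and their share among the members is no independent evidence. RefSeq promoter sequences (GRCh38.p14, 250 bases before to 50 after the transcription start) matched 35 of the 40 members. On both strands, 3 motifs were searched: the ER stress element, CCAAT and CCACG set 9 bases apart, bound by ATF6 with NF-Y, the related element II, ATTGG and CCACG set 1 base apart, and TGACGTGG, a core of the unfolded protein response element recognised by XBP1 and ATF6. The first stood in 6 of 35 members (17.1%) and in 22 of 27305 promoters in the table (0.0806%). Element II stood in 3 members (8.57%) and in 0.0549% of all promoters, and TGACGTGG in 3 members (8.57%) and in 0.795%. Among the 9753 promoters of tested genes, the shares of the 3 motifs in this order were 0.133%, 0.103% and 0.964%. A match describes letters in this window and is not evidence of binding. Only 1 promoter per gene was searched, for exact letters, so a member without a match is not shown to lack such an element.

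The 6 ER stress element matches are shown because their carriers include the abundant chaperones HSPA5, HSP90B1, CALR and CANX and the factor XBP1, beside CRELD2 of lower level, with the matched letters in capitals and the strand of the gene read 5′ to 3′. In CRELD2 and CALR the element runs on the opposite strand, so its complement is in capitals. HSP90B1 has a second match nearer its start.
HSPA5, chr9:125241371-125241429, minus strand: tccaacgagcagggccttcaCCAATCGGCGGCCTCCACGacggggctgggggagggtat
HSP90B1, chr12:103930196-103930254, plus strand: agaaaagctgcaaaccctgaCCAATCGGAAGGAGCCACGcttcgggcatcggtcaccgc
CANX, chr5:179698758-179698816, plus strand: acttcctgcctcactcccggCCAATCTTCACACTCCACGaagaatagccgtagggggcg
CALR, chr19:12938364-12938422, plus strand: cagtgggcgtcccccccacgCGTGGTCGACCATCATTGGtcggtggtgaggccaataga
CRELD2, chr22:49918534-49918592, plus strand: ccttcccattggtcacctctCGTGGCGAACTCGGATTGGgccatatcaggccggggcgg
XBP1, chr22:28800583-28800641, minus strand: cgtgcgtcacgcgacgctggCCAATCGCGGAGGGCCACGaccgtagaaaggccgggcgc

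Element II is shown for its 3 carriers, HERPUD1, HYOU1 and SDF2L1, and TGACGTGG for KDELR3 and SEC23A, which were among the members with the highest fold changes. HERPUD1 and SEC23A carry their motif on the strand of the gene, and the other 3 carry the complement.
HERPUD1, chr16:56932005-56932055, plus strand: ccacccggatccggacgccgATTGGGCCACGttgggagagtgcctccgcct
HYOU1, chr11:119057254-119057304, minus strand: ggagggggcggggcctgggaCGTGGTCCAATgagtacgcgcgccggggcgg
SDF2L1, chr22:21642094-21642144, plus strand: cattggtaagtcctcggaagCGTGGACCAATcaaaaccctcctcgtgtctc
KDELR3, chr22:38468030-38468077, plus strand: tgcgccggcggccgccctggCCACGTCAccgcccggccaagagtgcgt
SEC23A, chr14:39103232-39103259, minus strand: cacgccccgtcccctcctctTGACGTGG
HYOU1 has a second element II, and its TGACGTGG match overlaps that one. The 6 carriers of the first element had fitted log2 fold changes from −0.16 to 0.26, with a median of 0.11. The 3 carriers of element II ranged from 0.02 to 0.80, with a median of 0.19, and the 3 of TGACGTGG from 0.02 to 0.92, with a median of 0.58. HYOU1 counts in both. The 24 members with none of the 3 motifs ranged from −0.20 to 0.77, with a median of 0.13. The range of the first element lay inside that of the members without a match, while the highest carriers of the other motifs, HERPUD1 and KDELR3, lay above it. These groups are small and their differences were not tested.

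Among the chaperones, HSPA5 (BiP), the main Hsp70 of the ER lumen, whose promoter element is printed above, had 822.6 CPM (counts scaled to the library total) in control 1 and 844.5 in invasive 1. In pair 2 it had 914.0 CPM in the control and 1119.7 in the invasive population. The pair 1 libraries thus lay close together, and invasive 2 was the highest of the 4. HSP90B1 (GRP94), the Hsp90 of the ER, had 1121.5, 1193.3, 1126.8 and 1036.6 CPM in control 1, invasive 1, control 2 and invasive 2. Its log2 differences were 0.06 in pair 1 and −0.12 in pair 2, opposite in sign. CALR and CANX, lectin chaperones that hold glycoproteins during folding, had fitted log2 fold changes of 0.10 ± 0.11 and −0.16 ± 0.10. Their controls averaged 1188 ± 98 and 1342 ± 105 CPM (SD, n = 2).

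DNAJB9 (ERdj4), a co-chaperone that recruits BiP to IRE1 and to misfolded proteins, stood apart from the other chaperones in size. It stood at 11.6 CPM in control 1 and 15.3 in its invasive partner, and at 13.8 in control 2 and 30.9 in invasive 2. Both invasive libraries were above both controls, 1.29-fold in pair 1 and 2.22-fold in pair 2, with an adjusted p of 0.163 (edgeR). Without invasive 2 its log2 fold change was 0.25, and without invasive 1 it was 1.25. The interval of DNAJB9 in the files overlaps PNPLA8 and THAP5, whose counts were 358.1% and 170.7% of its own and whose log2 fold changes were −0.0056 and 0.02.

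The other co-chaperones lay closer to 0. DNAJB11 (ERdj3), a BiP partner, had 81.8, 75.6, 86.6 and 75.9 CPM in control 1, invasive 1, control 2 and invasive 2. Both invasive libraries were below both controls, with a log2 fold change of −0.17 ± 0.09 and an adjusted p of 0.376 (edgeR). DNAJC3, which also works with BiP, had 0.095 ± 0.11, and SDF2L1, which partners DNAJB11, had 0.19 ± 0.15. HYOU1, an exchange factor for BiP, MANF, a BiP cofactor that can be secreted, and CRELD2, another stress-induced ER protein, had 0.02 ± 0.09, 0.05 ± 0.09 and 0.13 ± 0.11. MANF varied from 69.2 to 73.6 CPM over the 4 libraries, the narrowest relative range of these.

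The disulfide isomerases split by member. P4HB, the protein disulfide isomerase that is also a subunit of the collagen prolyl 4-hydroxylase, stood at 932.5 CPM in control 1 and 1094.4 in its invasive partner, and at 826.4 in control 2 and 1195.1 in invasive 2. Both invasive libraries lay above both controls (log2 fold change 0.36 ± 0.12, edgeR adjusted p = 0.209). PDIA3, PDIA4 and PDIA6, its relatives for other clients, had 0.05 ± 0.10, 0.004 ± 0.11 and −0.10 ± 0.10. PDIA4 was higher in pair 1 (log2 difference 0.13) and lower in pair 2 (−0.12).

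**Figure D2:**
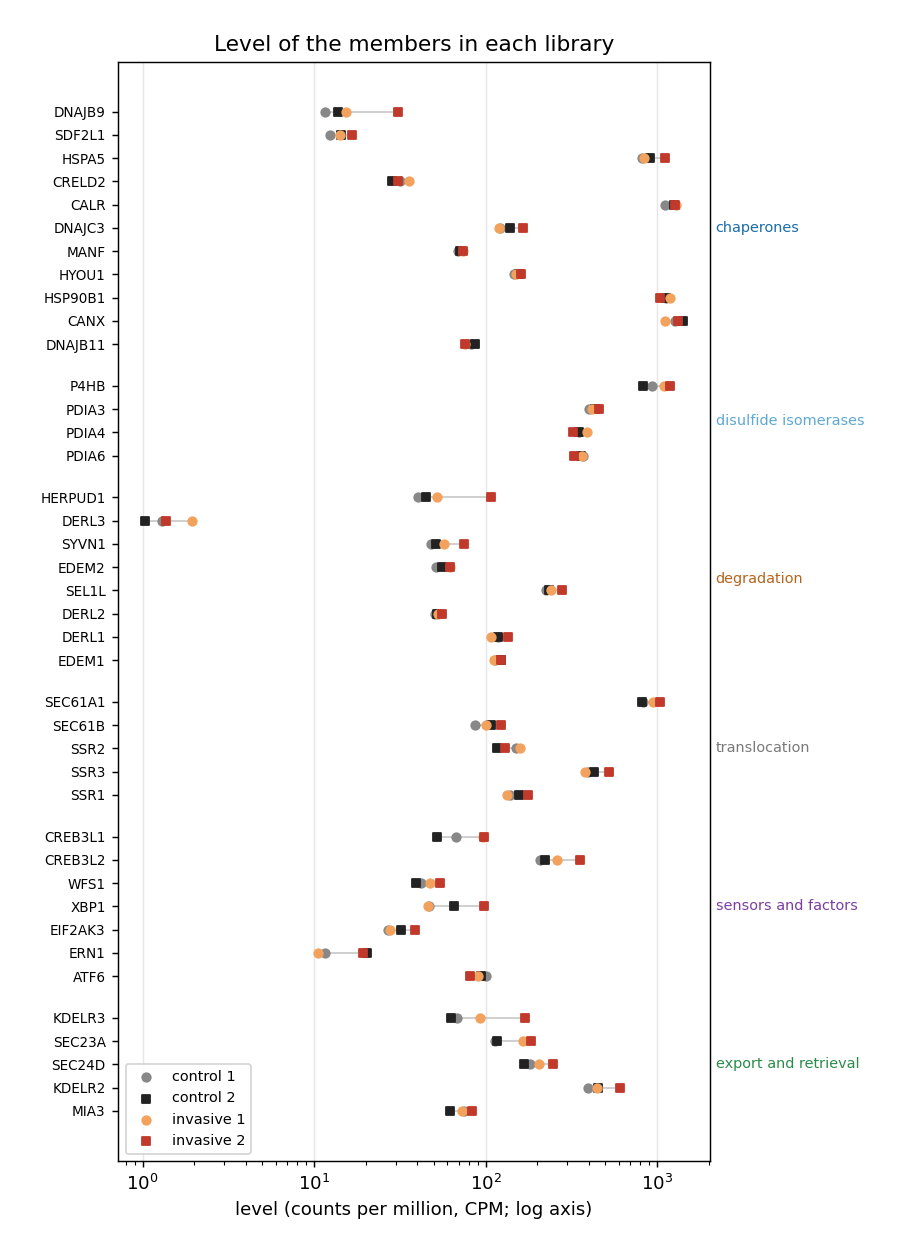
Level of each member in CPM (log axis) in the 4 libraries, controls in grey and black, invasive populations in orange and red, with a line over the range of each gene. The points of the chaperones other than DNAJB9 and of PDIA3, PDIA4 and PDIA6 lie close together. Invasive 2 is set apart to the right for KDELR3, HERPUD1 and DNAJB9.

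Per length, CALR was the most abundant member, at 455.5 CPM per kilobase of exon (mean of 4 libraries, GENCODE 29 exon union). HSP90B1, HSPA5, CANX, SEC61A1 and P4HB followed at 238.5, 236.7, 205.2, 193.3 and 190.9. The lowest were DERL3 at 0.372 and ERN1 at 1.42. The members with the highest fold changes were of middling or low level per length, at 50.9 for KDELR3, 19.4 for CREB3L1, 16.2 for SEC23A, 11.9 for HERPUD1 and 6.31 for DNAJB9. In sum, the 11 chaperones took 4804.8 CPM in control 1 against 4931.4 in invasive 1, and 5224.0 in control 2 against 5305.8 in invasive 2. The 5 export and retrieval genes took 832.2, 983.9, 861.4 and 1294.2 CPM in the same order. The chaperone sum differed more between the pairs than within them, and the export sum was highest in invasive 2.

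In ER-associated degradation, HERPUD1, which organises the ubiquitin ligase complex, had 40.4 CPM in control 1 and 52.2 in invasive 1. In pair 2 it had 44.9 CPM in the control and 108.0 in the invasive population. The 2 controls lay close together, and invasive 2 had more than any other library (1.26-fold over its control in pair 1, 2.39-fold in pair 2, edgeR adjusted p = 0.247). Without invasive 2 the log2 fold change was 0.27. Without invasive 1 it was 1.31 and passed (edgeR adjusted p = 0.0281), in a fit with no block where invasive 2 is the only invasive library.

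SYVN1 (HRD1), the ubiquitin ligase of that complex, had 47.9, 57.6, 51.3 and 74.6 CPM in control 1, invasive 1, control 2 and invasive 2. Both invasive libraries were above both controls (log2 fold change 0.38 ± 0.12, edgeR adjusted p = 0.183). The interval of SYVN1 overlaps FAU and MRPL49, whose counts were 353.7% and 145.0% of its own and whose log2 fold changes were −0.04 and −0.12. SEL1L, the adaptor of SYVN1, had 223.9, 241.7, 234.9 and 279.0 CPM in the same order, and its log2 fold change was 0.16 ± 0.10.

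EDEM1 and EDEM2, which trim mannose from glycoproteins bound for degradation, had −0.02 ± 0.09 and 0.19 ± 0.10. DERL1 and DERL2, membrane proteins of the exit route, had −0.0005 ± 0.12 and 0.06 ± 0.10. DERL1 was lower in pair 1 (−0.18) and higher in pair 2 (0.18). DERL3 had 23 counts in control 1 and 30 in invasive 1, and 16 and 19 in the libraries of pair 2, too few to place its log2 fold change of 0.48 ± 0.36. DERL3 overlaps SMARCB1, which had 651 to 1071 counts, and DESeq2 gave DERL3 no adjusted p.

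Of the translocation genes, SEC61A1, the channel itself, had 831.7, 942.4, 813.9 and 1042.9 CPM in control 1, invasive 1, control 2 and invasive 2. Both invasive libraries were above both controls (log2 fold change 0.25 ± 0.11, edgeR adjusted p = 0.294). SEC61B, a small channel subunit, had 0.18 ± 0.09. SSR1, SSR2 and SSR3, subunits of the translocon-associated complex, had 0.05 ± 0.11, 0.10 ± 0.10 and 0.10 ± 0.12. SSR1 and SSR3 were lower in pair 1 (−0.08 and −0.09) and higher in pair 2 (0.17 and 0.29).

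The 7 stress sensors and factors did not share a direction. Higher in both pairs were 4 of them, 2 were lower in both, and the pairs differed in direction for 1. CREB3L1 (OASIS), an ER-anchored transcription factor released by cleavage, stood at 67.3 CPM in control 1 and 96.7 in its invasive partner, and at 52.1 in control 2 and 98.0 in invasive 2. The invasive libraries had nearly the same level and both controls lay below them (edgeR adjusted p = 0.0937, DESeq2 adjusted p = 0.0395). The fold was 1.40 in pair 1 and 1.88 in pair 2, where control 2 was the lowest library. Leaving out any 1 library gave log2 fold changes from 0.50 to 0.89. CREB3L2 (BBF2H7), its relative, had 207.9, 260.5, 223.3 and 355.3 CPM in the same order, with both invasive libraries above both controls (0.48 ± 0.12, edgeR adjusted p = 0.139).

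ATF6, which is also released by cleavage, stood at 101.1 CPM in control 1 and 90.4 in its invasive partner, and at 93.8 in control 2 and 81.1 in invasive 2. The invasive libraries were the 2 lowest, by −0.20 and −0.21 log2 units within the pairs (edgeR adjusted p = 0.301). ERN1 (IRE1) had 11.6, 10.5, 20.3 and 19.3 CPM in control 1, invasive 1, control 2 and invasive 2. Both libraries of pair 2 were above both of pair 1, and the log2 fold change of invasive over control was −0.12 ± 0.15 (edgeR adjusted p = 0.709). EIF2AK3 (PERK) had 26.8, 27.8, 32.1 and 39.0 CPM and 0.15 ± 0.13. XBP1, whose mRNA is spliced by IRE1, had 47.1, 46.4, 65.8 and 97.3 CPM, so that the pair 1 libraries lay together and invasive 2 was the highest. Gene counts do not tell spliced from unspliced XBP1. WFS1, an ER membrane protein that restrains ATF6, had 42.1, 47.6, 39.4 and 54.0 CPM, with both invasive libraries above both controls (0.30 ± 0.12, edgeR adjusted p = 0.272).

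**Figure D3:**
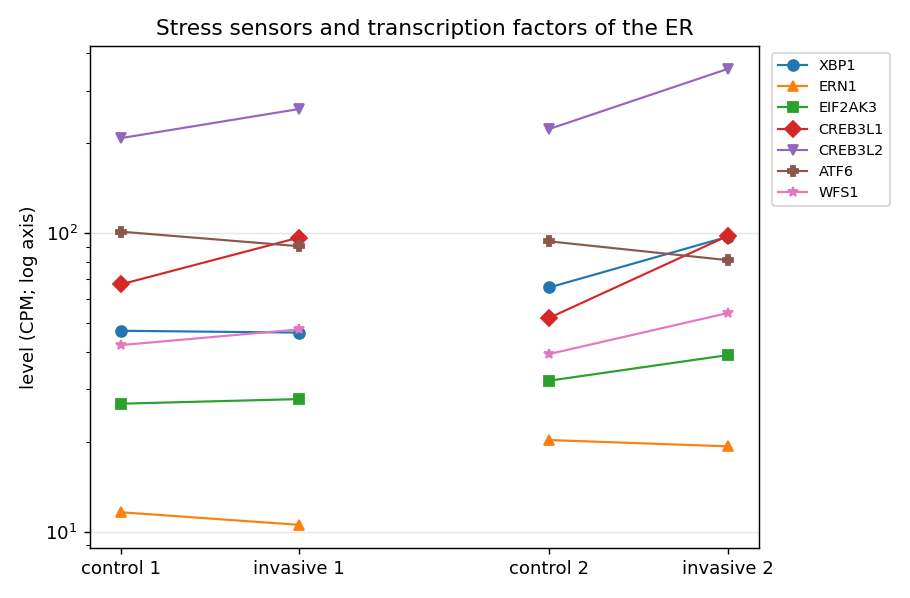
Level in CPM (log axis) of 7 sensors and factors in the 4 libraries, with a line joining the control and the invasive library of each pair. CREB3L1, CREB3L2 and WFS1 slope upward and ATF6 downward in both pairs, whereas ERN1 is at 11.6 and 10.5 CPM in pair 1 and at 20.3 and 19.3 CPM in pair 2.

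All 5 export and retrieval genes had fitted log2 fold changes above 0, and 4 were higher in both pairs. SEC23A, a subunit of the inner COPII coat, stood at 112.8 CPM in control 1 and 164.8 in its invasive partner, and at 117.4 in control 2 and 185.1 in invasive 2. The 2 controls and the 2 invasive libraries each lay close together without overlap. The difference was alike in the pairs, 1.43-fold and 1.57-fold, with an adjusted p of 0.0846 in edgeR and 0.04996 in DESeq2. SEC24D, a cargo-binding coat subunit, had 180.5, 204.2, 166.8 and 248.0 CPM in control 1, invasive 1, control 2 and invasive 2, again without overlap (0.36 ± 0.13, edgeR adjusted p = 0.227). MIA3 (TANGO1), which loads procollagen into vesicles, had 74.7, 73.0, 61.8 and 83.8 CPM, and its log2 values for invasive over control were −0.07 (pair 1) and 0.44 (pair 2).

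KDELR3 stood at 67.8 CPM in control 1 and 92.3 in its invasive partner, and at 62.7 in control 2 and 169.9 in invasive 2. Both invasive libraries were above both controls, 1.33-fold in pair 1 and 2.70-fold in pair 2, and the spread between the pairs left an adjusted p of 0.293 (edgeR). Without invasive 2 its log2 fold change was 0.48, and without invasive 1 it was 1.35 and passed (edgeR adjusted p = 0.0259), again in a fit with no block. The gene lies on chromosome 22 from 38468062 to 38483447 (GRCh38), and its interval overlaps DDX17, whose counts were 580.5% of its own and whose log2 fold change was 0.11. The library kit keeps the strand, but the labels do not say whether the counting used it. The part of DDX17 reads in KDELR3 was not tested. Genes with at least 10% of a member's counts overlapped 8 members. Beside KDELR3, DNAJB9, SYVN1 and DERL3 these were CRELD2 (ALG12, 75.64%), DERL2 (MIS12, 60.39%), DERL1 (TBC1D31, 15.0%) and DNAJB11 (TBCCD1, 12.25%). KDELR2 had 396.4, 449.5, 452.7 and 607.3 CPM in control 1, invasive 1, control 2 and invasive 2 (0.28 ± 0.11, edgeR adjusted p = 0.257).

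Paralogs of the KDEL receptors, SEC23A and SEC24D, named here after their values were seen, are given for comparison. KDELR1, the remaining KDEL receptor, had a log2 fold change of 0.20 ± 0.10. Per kilobase of exon, KDELR3 stood at 0.804 of KDELR1 in control 1 and 0.694 in control 2, but at 0.984 in invasive 1 and 1.55 in invasive 2. SEC23B, the other SEC23 protein, had −0.04 ± 0.10, and the ratio of SEC23A to SEC23B per kilobase was 0.760 in control 1 and 0.696 in control 2, against 1.16 in invasive 1 and 1.07 in invasive 2. Of the SEC24 paralogs, SEC24A, SEC24B and SEC24C had 0.22 ± 0.12, −0.06 ± 0.10 and 0.07 ± 0.10. The difference between paralogs was not tested.

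The members' differences were larger in pair 2 than in pair 1 for 30 of 40, where 50.4% of all genes were, with medians of 0.22 and 0.067. The medians over all genes tested were 0.0082 and 0.0024. Of the 120 other ER genes tested, described below, 92 likewise had the larger log2 difference in pair 2. At least 1.5-fold higher in pair 2 were 6 members (DNAJB9, HERPUD1, CREB3L1, CREB3L2, SEC23A and KDELR3), against 10.9% of all genes. In pair 1 there were 0, against 8.43%, and 0 members were 1.5-fold lower in either pair (3.42% of all genes in pair 1 and 6.04% in pair 2). Higher in both pairs and more so in pair 2 were 21 members, against 19.9%. Each pair has 1 library per group, so whether the pairs differ in their effects could not be tested.

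**Figure D4:**
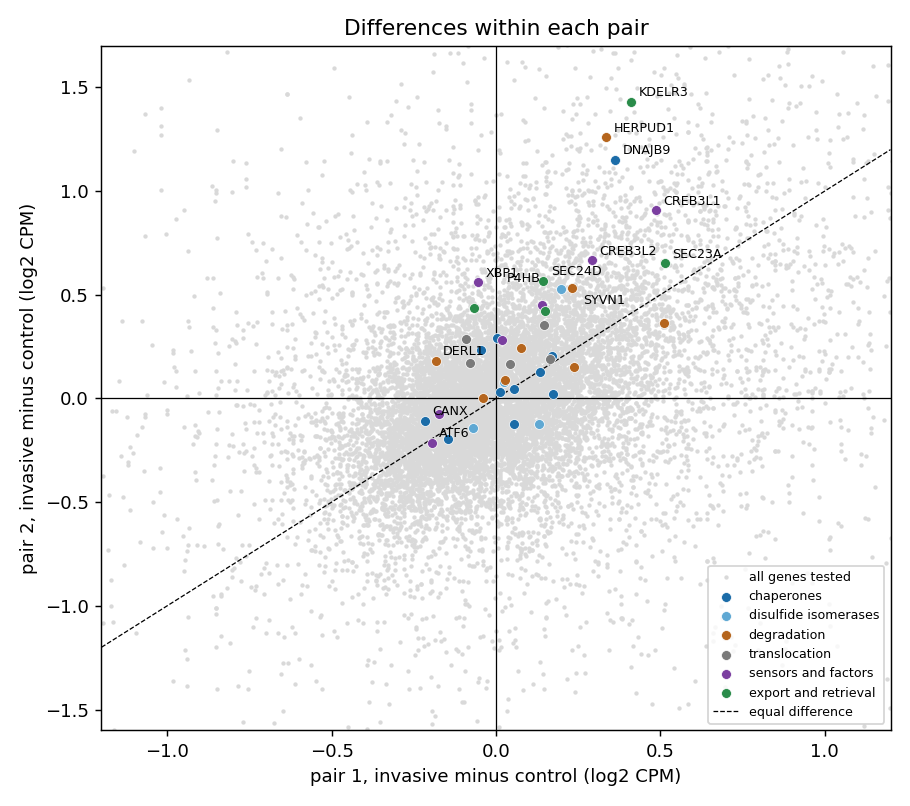
Log2 difference of pair 2 against that of pair 1 for the 40 members, coloured by role, over all genes tested in grey. The dashed line marks equal differences, and 530 genes fall outside the axes. Most members lie above the line, with KDELR3, HERPUD1 and DNAJB9 highest, and XBP1 left of 0 in pair 1.

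In the same fit, for pair 2 against pair 1 over both groups, 0 of 40 members passed the adjusted threshold, against 0.0984% of all genes. At an unadjusted p under 0.05, 8 were higher in pair 2 (7.24% of all genes) and 1 was lower (7.58%). ERN1 had the largest value, a log2 fold change of 0.83 ± 0.15 (edgeR adjusted p = 0.124), and XBP1 followed with 0.77 ± 0.16 (0.179). DNAJB9, EIF2AK3, DNAJC3, KDELR2, SEC61B and SSR1 made up the rest, from 0.30 to 0.64, and SSR2 was the lower gene (−0.33 ± 0.10). Of 9 targets of the PERK branch, 6 were higher in pair 2 at an unadjusted p under 0.05 and 0 were lower. The pair and whatever was handled together with it cannot be told apart.

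The rest of the secretory machinery was read from 4 lists of other ER genes for folding, degradation, translocation and export. Of 124 genes, 120 were tested, with a median log2 fold change of 0.07 and medians of −0.0043 in pair 1 and 0.097 in pair 2. None of the 120 passed in edgeR, in either direction. At an unadjusted p under 0.05, 13 were higher and 5 lower, beside 9.82% and 8.41% of all genes, so that the share of higher genes was near the background. DESeq2 called 1 higher, beside 1.15% of the genes it tested, and 0 lower. The gene called by DESeq2 was TRAM2, a translocation protein known for collagen synthesis, which had the highest value of the lists. Its levels were 258.9 CPM in control 1 against 377.4 in invasive 1, and 194.9 in control 2 against 319.5 in invasive 2. Both invasive libraries were above both controls (log2 fold change 0.61 ± 0.11, edgeR adjusted p = 0.0910, DESeq2 adjusted p = 0.0202).

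The mannosidase MAN1B1, the prolyl isomerase FKBP7 and the coat gene SEC31B came next, with 0.55 ± 0.11, 0.54 ± 0.13 and 0.54 ± 0.29. The lowest were the thioredoxin-like TMX3 (−0.51 ± 0.11), the transcription factor CREB3L4 (−0.50 ± 0.25), the signal peptidase subunit SEC11C (−0.41 ± 0.20) and the cargo receptor TMED5 (−0.31 ± 0.09). SEC31B had 26 to 54 counts and CREB3L4 had 35 to 103. Adjusted p-values of these 7 ran from 0.107 to 0.376 (edgeR).

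The cargo was described by a list of 13 genes of collagen and matrix, with the collagen chaperone SERPINH1 among them. Its median log2 fold change was 0.95, with 0.76 in pair 1 and 1.11 in pair 2, and 12 of 13 were higher in both pairs, where 33.4% of all genes were. In it 2 genes rose, COL1A1 (1.40 ± 0.13, edgeR adjusted p = 0.0278) and COL5A2 (1.00 ± 0.11, edgeR adjusted p = 0.0337), both named after their values were seen, and 0 fell, where 0.239% of all genes were called higher and 0.0351% lower. DESeq2 called 5 of the 13 higher and 0 lower, against 1.15% and 0.236% of the genes it tested. The largest fitted values were those of COL4A1 (2.39 ± 0.46), COL5A1 (1.59 ± 0.34) and COL1A2 (1.44 ± 0.18), with adjusted p from 0.0708 to 0.201 (edgeR). The list was set up with earlier results of these samples known, so its direction is no independent evidence, and its difference from the members was not tested. The 9 targets of the PERK branch had a median of 0.04. CHAC1 (0.98 ± 0.24), ATF3 (0.58 ± 0.18) and ASNS (0.38 ± 0.19) had the largest values. In edgeR 0 of 9 passed, where 0.239% of all genes were called higher and 0.0351% lower. In DESeq2 0 of 9 passed, against 1.15% and 0.236% of the genes it tested. At an unadjusted p under 0.05 in edgeR, 2 were higher and 0 lower, beside 9.82% and 8.41% of all genes.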

How the data were processed

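The authors deposited a raw count file and a normalized file per library. Per the file headers the raw files hold whole-number counts per Ensembl gene, and the deposited normalized value is a score rounded by the authors, by a method the labels do not name. The submitters' processing notes name GRCh38 and, without role or order, HTSeq, DESeq2, Bowtie, TopHat2 2.0.12 and bcl2fastq 1.8.4. The 29387 genes in all 4 raw files were analysed.

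Genes were filtered with filterByExpr by group (minimum count 10, minimum total 15) and tested with edgeR 4.0.16 (R 4.3.3): TMM factors, quasi-likelihood F test, two-sided, robust prior, pair as a block, Benjamini-Hochberg adjustment. The design leaves 1 residual degree of freedom, and the SE is the log2 fold change over the root of F. CPM use library totals, and within-pair differences use log2 CPM (prior count 2). The block follows the design text, and control and invasive libraries of a pair deviated together (r 0.283 across genes). Alternatives were DESeq2 1.42.0, other scalings, no filter, no block and leaving out each library. The test was run on simulated data with the same dispersion for every gene and changes larger than any fitted for a member. That run does not show how the test performs for smaller changes. A gene at 0 counts could stand at up to 0.168 to 0.217 CPM (3 counts, counting error only).

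Members, roles and lists were chosen with earlier results of these data known. All 40 members were reported. Of other ER genes the text names the 4 highest and 4 lowest and any past the threshold. Of the collagen and PERK lists it names 3 each by size of change. Named besides were COL1A1 and COL5A2, which passed, SERPINH1, and the paralogs of the KDEL receptors, SEC23A and SEC24D. Markers of cell types were picked from their lists.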

Additional observations from a re-analysis of the deposited data

Results flagged for a closer look

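The pairs differed in direction, each beyond counting error (exact 95% binomial interval of the 2 counts), for 4 members. HSP90B1 had log2 differences of 0.056 in pair 1 and −0.12 in pair 2, and PDIA4 had 0.13 and −0.12. DERL1 had −0.18 and 0.18, and SSR3 had −0.092 and 0.29. The difference between the pairs was not tested, since each has 1 library per group, and the intervals leave out variation between cultures.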

How the results depend on the processing

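No member was called lower in any fit run. Members called higher numbered 0, and 2 with upper quartile factors (CREB3L1 and SEC23A), 9 with no filter on low counts and 2 with DESeq2. In fits that left out 1 library and had no block, they numbered 0 to 2 (2 without invasive 1, HERPUD1 and KDELR3). With no replicate block 0 members were called, and the members' median was 0.16. The median log2 fold change of 0.15 ran from 0.06 (without invasive 2) to 0.26 (without invasive 1) when 1 library was left out. Members higher at an unadjusted p under 0.05, 10 in the main test, numbered 3 to 10 in those fits (4 without control 1, 3 without control 2 and 3 without invasive 2), and with no filter 1 member was lower. Between pairs, 5 members were called with no filter. Some were also called without control 2, in a fit where invasive 2 is the only library of pair 2. For the counts between pairs and at an unadjusted p in these alternative fits, the shares over all genes are not given here. These counts therefore describe the fits and are not read as a result about the members.

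Over all genes, 34 were called higher and 5 lower. These counts were 2 and 0 with no replicate block, 80 and 9 with RLE factors, 164 and 18 with upper quartile factors, 760 and 693 with no filter, and 142 and 29 with DESeq2. Leaving out 1 library gave 4 to 83 higher and 0 to 87 lower, with 83 and 87 without control 1, 4 and 0 without control 2, 8 and 0 without invasive 2, and 24 and 3 without invasive 1. The cause of these differences was not tested.

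Some members reversed in sign, among them XBP1, HSPA5 and EIF2AK3, whose values of 0.26, 0.15 and 0.15 were close to or above the members' median. With no filter HYOU1 had −0.0014 and PDIA4 −0.019, and with upper quartile factors EDEM1 had 0.0004 and DERL1 0.0203. DERL1 had 0.0093 with no replicate block. Leaving out 1 library gave log2 fold changes of −0.0644 to 0.3395 for HSPA5, −0.1446 to 0.0615 for HSP90B1, −0.0291 to 0.0572 for HYOU1, −0.1406 to 0.3089 for DNAJC3, −0.0298 to 0.1173 for PDIA3, −0.1466 to 0.139 for PDIA4 and −0.0957 to 0.0376 for EDEM1. It gave −0.1711 to 0.1548 for DERL1, −0.168 to 0.2395 for SSR1, −0.0906 to 0.3067 for SSR2, −0.143 to 0.3227 for SSR3, −0.6167 to 0.3237 for ERN1, −0.1059 to 0.381 for EIF2AK3 and −0.3042 to 0.7604 for XBP1. Counts of members higher or lower in both pairs, or without overlap, stayed within 1.5 times under the other scalings, prior count and normalized values tried, some of them chosen after seeing the data.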
